A study of Canis lupus familiaris with 36 samples.

Results

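MS4A1 encodes CD20, a membrane-spanning protein of B lymphocytes, and was measured here in lymphoma tissue from 35 dogs. It is 1 of 15115 genes on the array that the platform annotation names. All probe sets paired with MS4A1 there were taken, which gave 2, CfaAffx.16244.1.S1_at and Cfa.18914.1.S1_s_at. The first was the brighter on average and stands for MS4A1 below unless the second is named. Values are log2 intensities, and signal counted as measured from a log2 value of 4 (the minimum, an intensity of 16).

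The 36 arrays were hybridised with RNA from primary tumours that had been broken up mechanically and passed through a filter, so each value is an average over all cells of the tissue. Every dog had lymphoma, and no treatment is labelled. The B phenotype held 17 dogs, namely 10 with diffuse large B-cell lymphoma (DLBCL, high grade, aged 4 to 14 years, 6 Golden Retrievers), 5 with marginal zone lymphoma (MZL, low grade, aged 4 to 10, 4 Golden Retrievers) and 2 labelled BL (high grade, aged 2 and 5, 1 Golden Retriever). The T phenotype held 17 dogs, namely 9 with T-zone lymphoma (TZL, low grade, aged 7 to 11, 8 Golden Retrievers), 4 with peripheral T-cell lymphoma (PTCL, aged 6 to 14, 1 Golden Retriever, high grade except for 1 dog of intermediate grade) and 4 labelled LBT (high grade, aged 3 to 10, 3 Golden Retrievers). A single dog labelled NBNT (low grade, 8 years, Golden Retriever) entered no comparison. The labels do not say how the phenotypes were assigned, and a stain for a B cell protein, had it been used, would tie the labels to the gene.

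CD20 appears on the surface of developing B cells, stays through the mature stages and is lost when B cells become plasma cells. It lies close to the B cell receptor and takes part in the calcium signal that follows receptor binding, and it is the target of the antibody rituximab in human B-cell lymphoma. In canine pathology it serves as a B cell stain beside CD79A. MS4A1 sits in a cluster of related genes, and in the reference gene table MS4A5, MS4A14 and MS4A7 lie on one side of it and the microRNA gene MIR8813-1 on the other.

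Of the 36 arrays, 6 stood apart by a high signal of the actin 3′ control (log2 14.0 to 14.4, against 10.8 to 12.5 on the other 30). They came from DLBCL replicates 4 and 9, TZL replicates 1, 2 and 7, and PTCL replicate 3. Each array had a median intensity of 5.57 to 6.13 and 32.2% to 35.5% of its probe sets at or above the minimum. The T lineage genes, CD3 chains included, had 16 of 16 tested members lower in B than T dogs, against 22.3% of all genes. The lineage labels and the T cell genes thus point the same way. Only genes reaching the minimum in at least 4 dogs were tested. THEMIS and TCF7 of this list stayed below it in every B dog (highest 2.50 and 3.35). CD28 and GATA3 reached it in fewer than 4 B dogs. These genes entered the test only with T dogs counted, so their calls partly restate that filter. The B cell transcription factor PAX5 stayed below the minimum in every dog of both phenotypes, with a highest log2 value of 3.82, so it gave no measure of lineage here.

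MS4A1 was high and narrow in range in the B phenotype. The DLBCL dogs ran from 10.87 over a median of 11.31 to 11.99. The MZL dogs had 10.81, 11.20, 11.06, 11.50 and 11.55, and the BL dogs had 11.35 and 12.40. No B dog fell below 10.8 on this probe set.

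MS4A1 was widely spread in the T phenotype. The TZL dogs ran from 2.91 over a median of 8.55 to 10.55. The PTCL dogs had 9.97, 6.80, 9.29 and 10.80, and the LBT dogs had 3.42, 4.35, 6.70 and 10.67. Signal below the minimum was seen in 2 of the 17 T dogs, 1 TZL and 1 LBT, while 6 T dogs came within 1 log2 unit of the lowest B dog. Each of the 3 T labels held dogs more than 3 log2 units apart.

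MS4A1 averaged 11.40 ± 0.44 in B dogs and 8.02 ± 2.50 in T dogs (SD, n = 17 each), a 10.4-fold difference (log2 difference 3.38, SE 0.59, limma adjusted p = 2.01e-05). Of all 7500 genes tested, 24.2% passed the same test as higher in B. The lowest B dog, at 10.81, and the highest T dog, at 10.80, were 1 MZL and 1 PTCL dog and all but touched. Only 0.227% of genes were higher in every B dog than in every T dog, and MS4A1 was among them on this probe set. On the second probe set the ranges overlapped, since the lowest B dog had 10.11 and the highest T dog 10.94, with 4 T dogs at or above the lowest B dog. Its B minus T difference was 3.62 (SE 0.70, limma adjusted p = 8.48e-05). In bulk tissue, fewer cells of a type and less RNA per cell cannot be told apart.

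**Figure D1:**
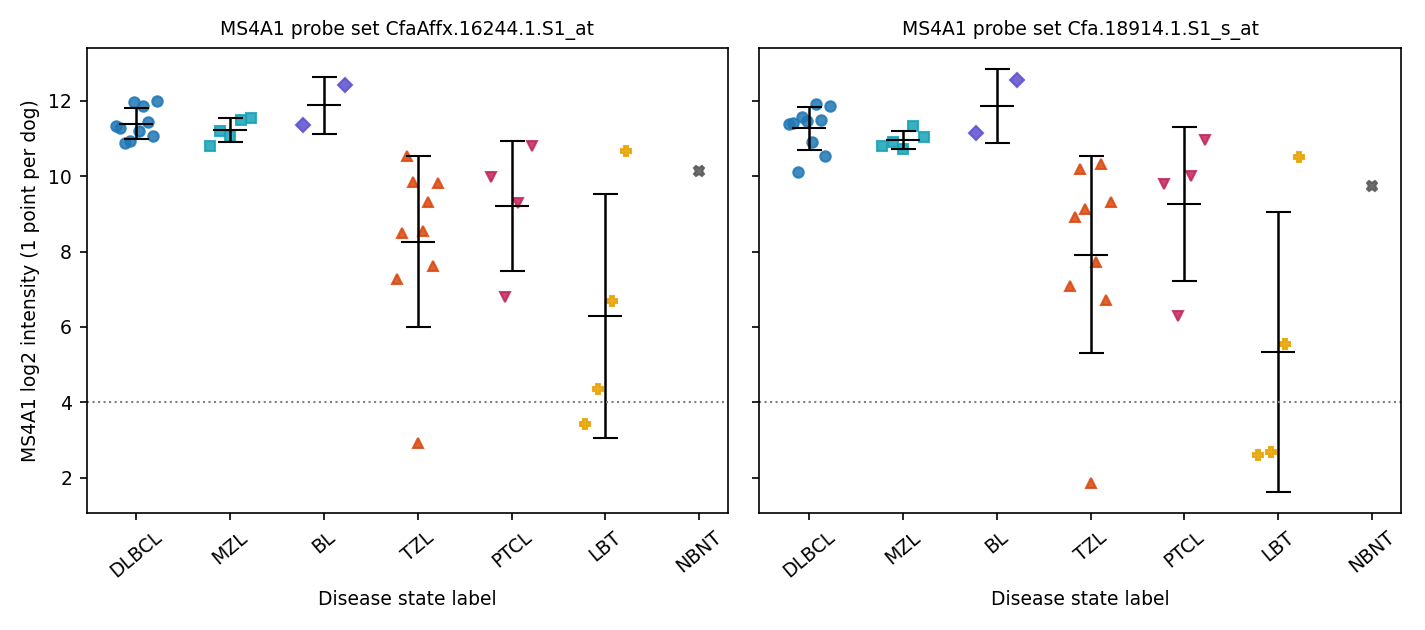
MS4A1 log2 intensity by disease state label for both probe sets, 1 point per dog, with black bars for the mean ± SD where a label has more than 1 dog and a dotted line at the minimum of 4. The B labels DLBCL, MZL and BL sit in a narrow band above 10.1, and the T labels TZL, PTCL and LBT spread from 1.86 to 10.94.

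The subtype means ran in the order BL (11.88 ± 0.75, n = 2), DLBCL (11.39 ± 0.42, n = 10), MZL (11.22 ± 0.31, n = 5), PTCL (9.22 ± 1.72, n = 4), TZL (8.26 ± 2.27, n = 9) and LBT (6.28 ± 3.23, n = 4), each as mean ± SD. No pair of neighbours in this order passed the limma test. BL minus DLBCL was 0.48 (SE 1.28, adjusted p = 0.983), and 0.0267% of genes were called in that comparison. DLBCL minus MZL was 0.17 (SE 0.91, adjusted p = 0.969), where limma called 0% of genes, with 386 higher and 591 lower at an unadjusted p under 0.05. MZL minus PTCL was 2.00 (SE 1.11, adjusted p = 0.224), with 15.5% of genes called.

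Within the T phenotype no pair of subtypes was separated for MS4A1. TZL minus PTCL was -0.95 (SE 0.99, limma adjusted p = 0.596), against 13.7% of genes called. TZL minus LBT was 1.98 (SE 0.99, adjusted p = 0.131), against 30.1% of genes called. PTCL minus LBT was 2.93 (SE 1.17, adjusted p = 0.274), against 0.68% of genes called. The LBT label held both the high dog, replicate 4, and 2 of the 3 lowest T dogs. Without LBT replicate 4, TZL minus LBT was 3.44 (limma adjusted p = 0.00656) and PTCL minus LBT 4.40 (adjusted p = 0.0295). Without TZL replicate 5, TZL minus LBT was 2.65 (adjusted p = 0.0142), and without LBT replicate 1 it was 1.03.

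Of the remaining subtype pairs, 6 passed the limma test, all of them across the phenotypes, namely DLBCL, MZL and BL each over TZL and over LBT. Of all genes, 46.9%, 27.5% and 25.3% were called in the 3 comparisons with TZL and 33.7%, 28.7% and 13.8% in those with LBT, each in the order DLBCL, MZL and BL. The largest of these differences was BL minus LBT at 5.59 (SE 1.43, adjusted p = 0.00802), followed by DLBCL minus LBT at 5.11 (SE 0.98, adjusted p = 0.000154). BL minus TZL, at 3.61, had an adjusted p of 0.0387 on the main probe set and 0.051 on the second. None of the B subtypes was called over PTCL, with DLBCL minus PTCL at 2.18 (SE 0.98, adjusted p = 0.113) against 20.9% of genes called. BL minus PTCL was 2.66 (adjusted p = 0.28), with 6.29% of genes called, and MZL minus BL, the last of these pairs, was -0.65 (adjusted p = 0.896), with 0.173% called. The limma fit shares its spread over subtypes whose SDs ran from 0.31 to 3.23. A two-sided permutation test on the dogs of DLBCL and PTCL alone gave p = 0.001 (0.005 after adjustment over the 15 subtype pairs), with 10 of 10 DLBCL dogs above all 4 PTCL dogs. For MZL against PTCL the exact test gave p = 0.00794, the smallest these group sizes allow (0.02 after the same adjustment). DLBCL and MZL also passed that test over TZL and over LBT. The BL calls did not hold by it. BL minus LBT had an exact permutation p of 0.133 (adjusted 0.222), with 0.0667 the smallest its 2 and 4 dogs allow, and BL minus TZL an exact permutation p of 0.0909 (adjusted 0.195).

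The spread itself differed between the phenotypes. The mean absolute deviation from the phenotype median was 1.92 in T dogs and 0.33 in B dogs (difference 1.59, two-sided permutation p = 2e-05). Taken from each subtype's own median it was 1.62 in T dogs and 0.32 in B dogs (difference 1.29, permutation p = 8e-05). Among the 7500 tested genes, 99.0% had a smaller SD over T dogs than MS4A1 and 32.3% a smaller SD over B dogs. The spread was seen with both probe sets, whose values correlated over the 17 T dogs with r = 0.982 as a description, both being read from the same arrays. The repeated DLBCL case gave 11.27 and 11.13 on its 2 arrays.

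The relation of MS4A1 to other genes was then followed inside the T phenotype. The slope of each gene's log2 value on that of MS4A1 was fitted over the 17 T dogs, with a term for the subtype, so that differences between TZL, PTCL and LBT means do not enter. Of the 7499 other genes, 89 had a positive slope at an adjusted p under 0.05 (1.19%) and 1 a negative slope (0.0133%), the aminopeptidase gene NPEPL1. Of the 27 genes tested in 3 lists of B cell genes, 14 had a called positive slope, none a called negative slope, and the median slope was 0.46 against 0.01 over all genes. At an unadjusted p under 0.05 the counts were 23 positive and 0 negative, against 494 positive and 150 negative of the 7499 genes. FCRL5 of these lists, an Fc receptor-like protein, was below the minimum in all 17 T dogs (highest 3.02), so its slope and correlations there rest on no measured signal. FCRL1 and POU2F2 reached the minimum in 3 T dogs each, BLK and TNFRSF13C in 4 each, and CD180 and CXCR5 in 5 each. The slopes and correlations of these genes rest mostly on values below it. The lists cover surface receptors, signalling proteins and transcription factors of B cells, and several members also act in macrophages and other myeloid cells.

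Of the signalling proteins below the B cell receptor, 6 of 10 were called. SYK, the kinase that binds the activated receptor, ran from 2.87 to 9.96 over the T dogs and had a slope of 0.76 (SE 0.06, limma adjusted p = 2.51e-05). In the TZL dogs SYK was 6.84, 8.42, 9.54, 8.32, 2.87, 7.38, 8.88, 6.26 and 8.55 in replicates 1 to 9, lowest in the dog with the lowest MS4A1 and highest in the dog with the highest. BTK, the kinase acting after SYK, had a slope of 0.81 (SE 0.09, adjusted p = 0.000187). BLNK, the adaptor that links SYK to its targets, had a slope of 0.93 (SE 0.10, adjusted p = 0.000187). LYN, PLCG2 and BANK1, a kinase, a phospholipase and a scaffold of the same route, had slopes of 0.68, 0.74 and 0.92. BLK, a kinase of the LYN family, had a slope of 0.29 that was not called (adjusted p = 0.272), nor were those of PIK3AP1, STAP1 and CIITA.

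Among surface receptors 6 of 13 were called. CD79B, a signalling chain of the B cell receptor, had a slope of 0.98 (SE 0.13, limma adjusted p = 0.000654). FCRLA, an Fc receptor-like protein of B cells, had a slope of 0.99 (SE 0.11, adjusted p = 0.000187). CD40, which receives T cell help, and CD72 and CD22, which dampen the receptor signal, had slopes of 0.68, 0.69 and 0.39, and TNFRSF13C, the receptor for the survival factor BAFF, had 0.42. Of these, CD22 lay closest to the threshold, with an adjusted p of 0.0423 that ran from 0.0255 to 0.159 when single dogs were left out. TNFRSF13C was at or above the minimum in only 4 T dogs, with a highest value of 5.55. CD37, a tetraspanin found on B cells and on other leukocytes, had a slope of 0.05 (adjusted p = 0.907) and differed little between the phenotypes (B minus T 0.20, adjusted p = 0.326).

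CD79A, the partner chain of CD79B and the other common B cell stain, did not pass the slope test. Its slope was 0.28 (SE 0.18, limma adjusted p = 0.816), although it was called higher in B minus T (1.69, adjusted p = 0.0152). Whether its slope differs from those of other B cell genes was not tested. The TZL dog with the lowest MS4A1, replicate 5, had CD79A at 8.65, the highest of the 9 TZL dogs, while its CD79B was 2.08. In PTCL replicate 3 they parted in the other direction, with MS4A1 at 9.29 and CD79A at 3.79. With single dogs left out the CD79A slope ran from 0.13 without LBT replicate 4 (adjusted p = 1) to 0.62 without TZL replicate 5 (adjusted p = 0.266), uncalled throughout. Without the 3 T dogs with MS4A1 below 5, a choice made after seeing the data, it was 0.998 (adjusted p = 0.0497).

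**Figure D2:**
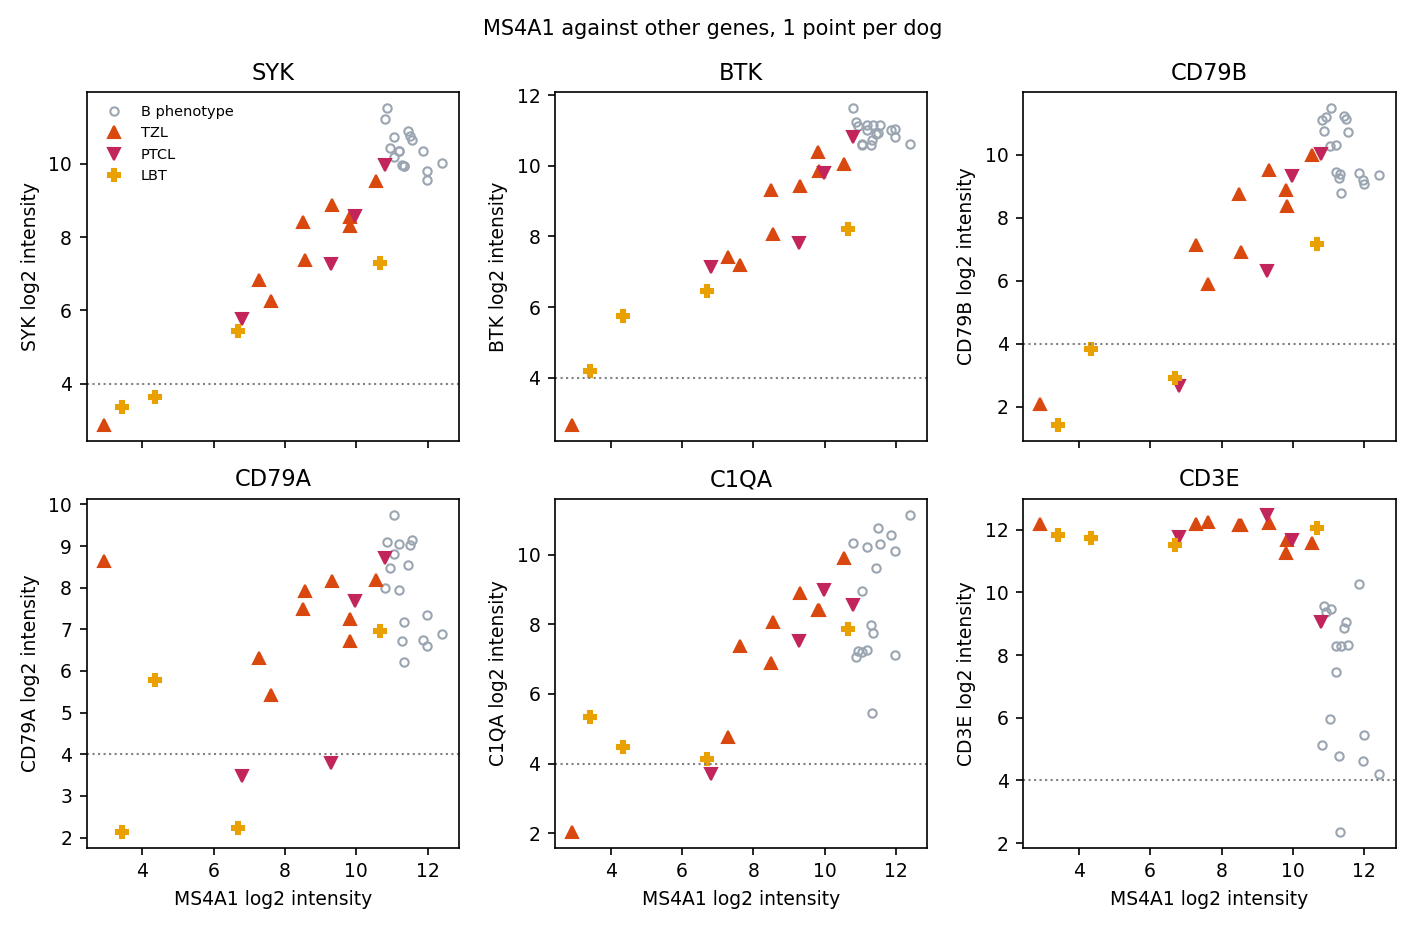
MS4A1 log2 intensity (horizontal) against that of SYK, BTK, CD79B, CD79A, C1QA and CD3E (vertical), 1 point per dog, with open circles for B phenotype dogs and filled symbols for TZL, PTCL and LBT dogs; the dotted line marks the minimum of 4. SYK, BTK and CD79B climb with MS4A1 over the T dogs, CD79A has TZL replicate 5 at 8.65 beside an MS4A1 value of 2.91, and CD3E stays above 11 in 16 of the 17 T dogs.

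Of the 4 transcription factors of B cells tested, 2 were called. EBF1, which sets the B lineage, had a slope of 0.64 (SE 0.13, limma adjusted p = 0.0157), and BCL11A had 0.58 (adjusted p = 0.0287). The coactivator POU2AF1 and its partner POU2F2 had slopes of 0.31 and 0.06, neither called. Of 8 tested factors known to act on the human MS4A1 promoter, 1 was called, SPI1, a factor of B and myeloid cells (slope 0.39, SE 0.08, adjusted p = 0.0148). FOXO1, TFE3, TCF3 and CREM of that list had slopes between 0.02 and 0.08. Of the MS4A family only MS4A2 and TMEM176A passed the filter on low values, with slopes of 0.07 and 0.24, neither called. The neighbours MS4A5 and MS4A14 were below the minimum in all tested dogs, and MS4A7 reached it in 2 dogs.

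Genes of other cell types moved with MS4A1 too. Of 11 macrophage and dendritic cell genes, 4 had a called positive slope, namely the complement chains C1QA (0.81, SE 0.12, limma adjusted p = 0.00242), C1QB (0.51) and C1QC (0.71), and the receptor FLT3 (0.41). At an unadjusted p under 0.05, 7 of the 11 were positive and 0 negative, against 494 positive and 150 negative of the 7499 genes. The summed intensity of this list ran from 271 to 10585 in TZL, from 5800 to 10175 in PTCL and from 1625 to 4476 in LBT. LYZ weighs heavily in these linear sums, at log2 12.48 in PTCL replicate 2 and 10.58 in LBT replicate 3. Its own slope was 0.38 (limma adjusted p = 0.0704) and not called. The slope of LYZ was called in TZL dogs only (0.69, adjusted p = 0.000634) and with no subtype term (0.37, adjusted p = 0.0353). It was also called with the trend and robust model (0.38, adjusted p = 0.045). With single dogs left out it was called without LBT replicate 1, 2 or 4 and stayed uncalled in the other 14 fits. The mean log2 value over the list ran from 3.01 to 7.41 in TZL, 4.62 to 7.63 in PTCL and 3.75 to 4.97 in LBT. No gene of the list was below the minimum in every PTCL dog, while 1 was in TZL and 5 were in LBT. Of 3 stroma and endothelium genes 1 was called, PECAM1 of endothelium and leukocytes (0.59, adjusted p = 0.0022), while the collagen genes COL1A1 and COL3A1 had slopes of 0.03 and 0.05. Of 4 germinal centre and follicular dendritic cell genes 1 was called, CXCL13, the chemokine of B cell follicles (0.66, adjusted p = 0.0188), while BCL6, RGS13 and CLU had 0.10, 0.20 and 0.36. None of 16 T lineage genes and none of 5 plasma cell genes was called by limma, with 2 T lineage genes negative and 2 plasma cell genes positive at an unadjusted p under 0.05. CD38 of the plasma cell list (0.55, adjusted p = 0.0681) was called without TZL replicate 4 (0.61, adjusted p = 0.0227), without TZL replicate 8 (0.57, adjusted p = 0.0286) and with no subtype term (0.60, adjusted p = 0.0383).

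With the mean of the macrophage and dendritic cell list as a covariate, an alternative chosen after seeing the data, limma called none of the 7499 slopes. At an unadjusted p under 0.05, 173 were positive and 183 negative, and 9 of the 27 B cell genes were positive. SYK had a slope of 0.60 (SE 0.09, adjusted p = 0.0954) and lost its call, CD79B had 0.70 (adjusted p = 0.45) and EBF1 0.37 (adjusted p = 0.999). With the mean of the T lineage list as a covariate instead, 51 genes had a called positive slope. Without TZL replicate 5, which had the lowest MS4A1, C1QA at 2.04 and LYZ at 7.71, the count was 39, of which 9 were B cell genes. Only part of the called genes was followed singly through the alternatives, and TNFRSF13C, BCL11A, C1QB, C1QC and FLT3 were not. Among those followed, 6 lost their calls with that dog left out while their slopes moved little. The 9 B cell genes still called did not include TNFRSF13C or BCL11A. The slopes of the 6 were 0.66 for EBF1 (adjusted p = 0.136), 0.74 for CD72 (0.0651), 0.44 for CD22 (0.159), 0.36 for SPI1 (0.177), 0.71 for C1QA (0.0667) and 0.59 for CXCL13 (0.205). Those of SYK, BTK, BLNK, BANK1, FCRLA, LYN, PLCG2, CD79B, CD40 and PECAM1 held whichever of the 17 dogs was left out. With values below 4 set to 4, CD40 lost its call (0.48, limma adjusted p = 0.0963). So did EBF1 (adjusted p = 0.19), CD72 (0.19), CD22 (0.465), SPI1 (0.147) and CXCL13 (0.314), all with positive slopes. With the second MS4A1 probe set, EBF1 (0.52, adjusted p = 0.0605) and CD22 (0.32, adjusted p = 0.0988) lost theirs. Without the 3 T dogs with MS4A1 below 5, 6 of the genes followed lost their calls while their slopes stayed positive, 5 of them steeper than with all dogs. Their slopes were then 1.01 for BANK1 (adjusted p = 0.0682), 0.84 for PLCG2 (0.0507), 0.97 for EBF1 (0.058), 0.68 for CD22 (0.0577), 0.86 for CXCL13 (0.121) and 0.62 for LYN (0.09). In that setting 9 B cell genes were called, CD79A newly among them, so TNFRSF13C and BCL11A did not both keep their calls. Without the arrays set apart by the actin control, 67 genes had a called positive slope, 11 of them B cell genes, and the 4 T dogs on those arrays were too few for a fit of their own. Whether cells of these types account for the slopes was not tested.

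**Figure D3:**
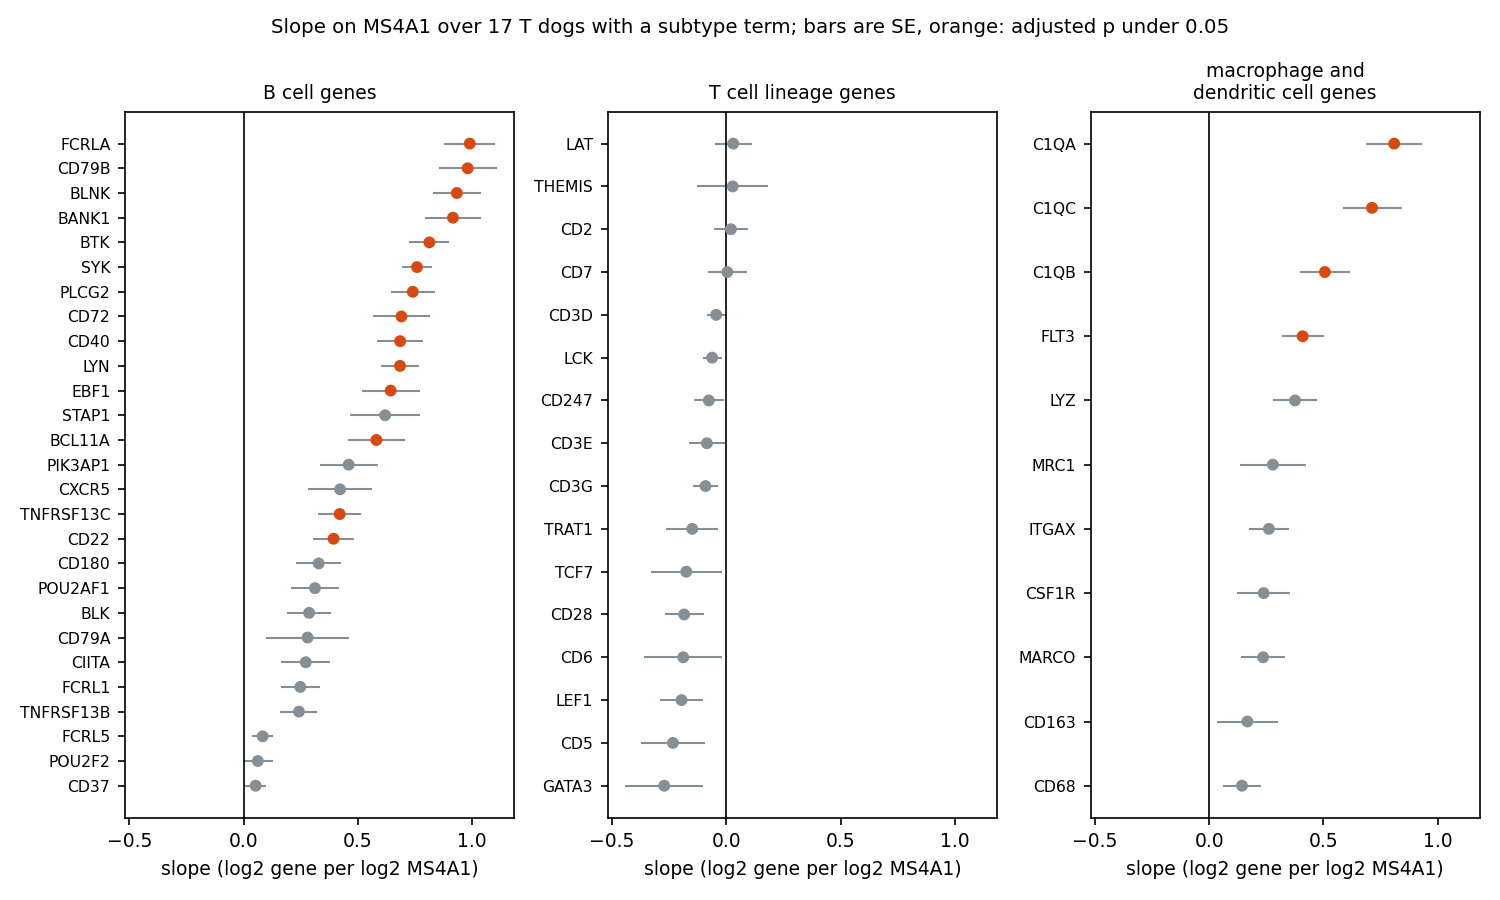
Slope of each gene on MS4A1 over 17 T dogs (horizontal, log2 per log2), with a subtype term, for genes of the B cell, T cell lineage and macrophage and dendritic cell lists; bars are the SE and orange points have an adjusted p under 0.05. The B cell genes run from 0.05 to 0.99, the T lineage genes from -0.27 to 0.03, and the C1Q chains lead the macrophage and dendritic cell genes.

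The same relation was measured as a correlation for the 27 B cell genes. Over the 17 T dogs Pearson's r ran from 0.343 to 0.949 with a median of 0.750, and the median Spearman's rho was 0.848. By two-sided permutation tests with adjustment over all 7499 genes, 13 of the 27 passed as positive by r, against 1.13% of all genes, and 19 by rho, against 1.37%. At an unadjusted permutation p under 0.05, 23 of the 27 were positive by r, against 519 of all genes. SYK had r = 0.949 (permutation p = 1e-05, the smallest the resamples can give, adjusted 0.0037) and rho = 0.885 (permutation p = 1e-05, adjusted 0.0079). CD79A had r = 0.431 (permutation p = 0.081, adjusted 0.59) and rho = 0.510 (permutation p = 0.038, adjusted 0.46).

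Leaving out the 2 dogs farthest from the MS4A1 median, TZL replicate 5 and LBT replicate 1, left a median r of 0.741. Over these 15 dogs 9 of the 27 passed by r, against 0.347% of all genes, and 1 by rho, against 0.04%. The median rho was 0.804 over these dogs, and 24 of the 27 were positive by rho at an unadjusted permutation p under 0.05. SYK then had r = 0.905 (permutation p = 2e-05, adjusted 0.037) and rho = 0.832 (permutation p = 0.00024, adjusted 0.081). CD79A had r = 0.594 (permutation p = 0.02, adjusted 0.34) and rho = 0.714 (permutation p = 0.0039, adjusted 0.22), higher than over all 17 T dogs but not past the test.

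Inside TZL alone, the only T subtype with enough dogs, the median r over the same genes was 0.836. The TZL dogs include replicate 5, with MS4A1 at 2.91 against 7.28 in the next lowest, so r can lean heavily on it. Correlations inside TZL without that dog were not measured. By exact permutation tests 8 of the 27 passed by r, against 0.507% of all genes, and 0 by rho, where 0% of all genes passed and 22 of the 27 had an unadjusted p under 0.05. SYK had r = 0.973 there (exact permutation p = 0.00024, adjusted 0.049) and CD79A r = -0.152. Over the 17 B dogs, whose MS4A1 values span 10.81 to 12.40, the median r was -0.044 and the range -0.581 to 0.443. None of the 27 relations passed the permutation test there by r or rho, nor did any of the 7499 genes (0%). At an unadjusted permutation p under 0.05 by r, 5 of the 27 were negative and 0 positive, against 411 negative and 900 positive of all genes. SYK had its lowest r in B dogs, at -0.581 (permutation p = 0.014, adjusted 0.2). Whether the relations differ between the phenotypes was not tested.

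Across all tested genes, the 10 whose values were most like MS4A1 over the 17 T dogs by Pearson's r were SYK (0.949), LAMP3 (0.944), BTK (0.936), LMO2 (0.932), MILR1 (0.920), DNASE2 (0.913), LYN (0.912), BLNK (0.911), PLCG2 (0.910) and BANK1 (0.898). Of the 7499 genes, 9 reached 0.9 (0.12%), and these values describe points that share arrays and tissue. LAMP3 is a lysosomal protein of mature dendritic cells, LMO2 a regulator of blood progenitors and germinal centre B cells, and DNASE2 a lysosomal nuclease. Over all 34 dogs 8 of these 10 genes were again among the 10 most alike, led by BTK at 0.952. Over the 17 B dogs the list was led by PDIA6 (0.837), PPP3CB (0.818) and FANCI (0.806), none of them a gene of the B cell lists, and no gene reached 0.9. The lowest values over T dogs were those of RYK (-0.813), KIF1C (-0.772), ZFYVE19 (-0.767), NDUFA4 (-0.765) and NAA40 (-0.749).

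The B cell genes as a group were also set against the subtype labels. In B minus T, 24 of the 27 were called higher and none lower, with a median difference of 3.05, against 24.2% of all genes called higher and a median of 0.03. CD37, POU2F2 and CIITA were the 3 not called. The filter on low values was met by 3 of the 27 only with B dogs counted, since FCRL5 reached the minimum in 0 T dogs and FCRL1 and POU2F2 in 3 each, so the calls of FCRL5 and FCRL1 partly restate the filter. Of the other 24 genes, 22 were called higher. In TZL minus LBT, 11 of 27 were called higher, against 12.4% of all genes, among them CD79B (3.67, SE 1.12, limma adjusted p = 0.0128), FCRLA (3.74, adjusted p = 0.00893) and CD79A (3.07, adjusted p = 0.00538). Of the plasma cell genes 4 of 5 were called higher in that comparison, PRDM1 (2.81), XBP1 (1.05), JCHAIN (2.80) and CD38 (2.81), and their part in the result was not tested. Of the macrophage and dendritic cell genes 2 of 11 were, a share near that of all genes. In TZL minus PTCL limma called 0 of 27, against 13.7% of all genes. At an unadjusted p under 0.05, 1 of the 27 was higher there and 0 lower, against 951 higher and 1075 lower of all genes. In PTCL minus LBT limma called 0 of 27, against 0.68% of all genes. There 14 of the 27 were higher and 0 lower at an unadjusted p under 0.05, against 400 higher and 533 lower of all genes. The change of MS4A1 relative to each B cell gene was compared between TZL and the mean of PTCL and LBT. It was called for 0 of 27 genes, and 0 passed at an unadjusted p under 0.05, against 3.04% of all genes called. The changes ran from -1.73 for CD79A to 0.64 for BCL11A, each with the same SE of 0.90. The fit gave these ratios 1 shared spread, and each ratio holds MS4A1 with its wide spread in T dogs. The count of 0 therefore does not show that MS4A1 and these genes changed alike. The summed intensity of the B cell signalling list ran from 7139 to 11068 in DLBCL, against 69.7 to 4591 in TZL, 453 to 7115 in PTCL and 97.1 to 1152 in LBT.

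T dogs with high MS4A1 differed in how many other B cell genes were measured with it. PTCL replicate 4 had MS4A1 at 10.80, 2 of the 27 other B cell genes below the minimum and a mean of 7.71 over them. Its CD3E was 9.06 and its GATA3, a T cell transcription factor, 5.39, the lowest values of the T phenotype. TZL replicate 3 had MS4A1 at 10.55, 2 genes below the minimum and a mean of 7.41, with CD3E at 11.57. The B dogs had 0 to 4 of these genes below the minimum.

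LBT replicate 4 had MS4A1 at 10.67, as high as these dogs, yet 11 of the 27 genes lay below the minimum and their mean was 5.26. Its SYK was 7.30, its BTK 8.21, its CD79B 7.16 and its EBF1 5.02, each lower than in TZL replicate 3 at 9.54, 10.04, 10.00 and 7.31. Its CD3E was 12.07, and its second MS4A1 probe set read 10.50. PTCL replicate 3, one of the 6 arrays set apart by the actin control, had MS4A1 at 9.29, CD3E at 12.48, 14 genes below the minimum and a mean of 4.63. TZL replicate 7, with nearly the same MS4A1 at 9.32, had 5 genes below the minimum and a mean of 6.46. At the other end TZL replicate 5 had 24 of 27 genes below the minimum, LBT replicates 1 and 2 had 23 and 22, and PTCL replicate 2 had 21 with MS4A1 still at 6.80.

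**Figure D4:**
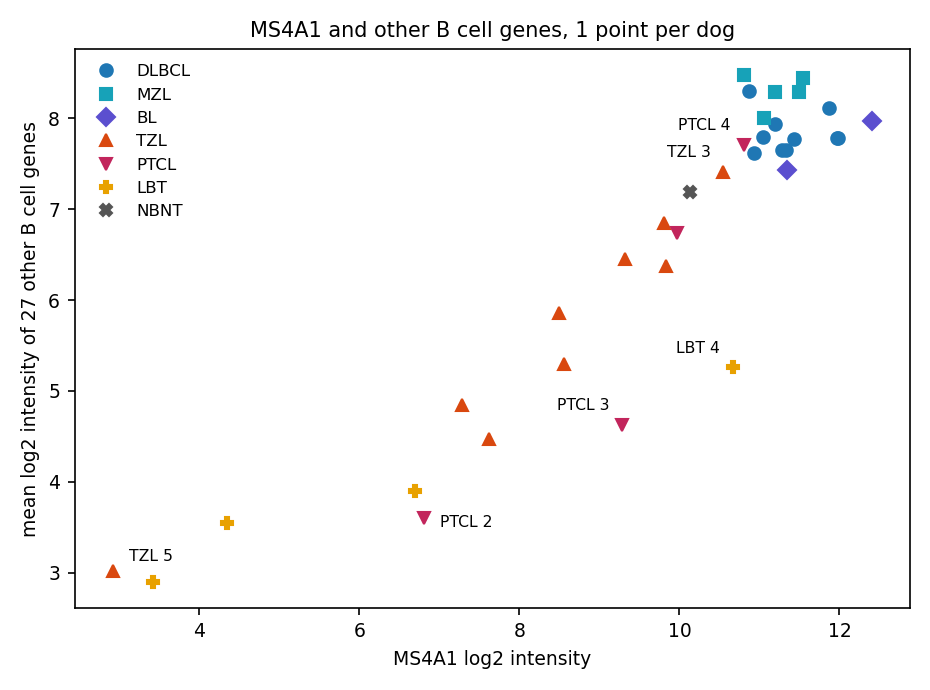
MS4A1 log2 intensity (horizontal) against the mean log2 intensity of 27 other B cell genes (vertical), 1 point per dog, by disease state label, with 6 T dogs named by label and replicate. Most T dogs lie along 1 band that ends near the B dogs, and LBT replicate 4 (10.67 and 5.26) and PTCL replicate 3 (9.29 and 4.63) lie below it.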

How the data were processed

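Tumour RNA of 35 dogs was hybridised to 36 Affymetrix canine arrays. The authors deposited linear intensities, summarised per probe set with GCRMA per the submitters' processing notes, with its version not given in the sources used here. Values under 1 were set to 1 before log2 was taken, and the 2 arrays of the repeated DLBCL case were averaged. Probe sets were named through the platform annotation (29254 of 43035 with 1 symbol), and the brightest probe set stood for each of 15115 genes. Genes at log2 4 or more in at least 4 of the 34 B and T dogs were tested (7500 genes).

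Tests used R 4.3.3 and limma 3.58.1 (lmFit, eBayes, Benjamini-Hochberg over all genes, threshold 0.05), with 2 phenotype means, with 6 subtype means, or with the slope on MS4A1 plus subtype over T dogs. Permutation tests were run with numpy 2.4.6, exact or with 100000 resamples, and all tests were two-sided. P-values of correlations were adjusted over all 7499 genes in place of the B cell genes alone. Limma models of B minus T, TZL minus PTCL, TZL minus LBT, DLBCL minus MZL and the slope were tried separately on simulated data. The permutation, correlation, ratio and spread tests were not tried in that way. Each dog is a separate case, so the spread is between dogs, and the number of arrays limits the precision. Replicate numbers follow the order of the records. The genes named were both MS4A1 probe sets, genes of 10 lists, and the 10 most and 5 least alike by r; dogs and non-list genes singled out beyond that, such as NPEPL1, were chosen after their values were seen. The member and the lists were chosen with earlier results of these data known.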

Additional observations from a re-analysis of the deposited data

Results flagged for a closer look

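TZL replicate 5 lay far from the other 8 TZL dogs on both MS4A1 probe sets, at log2 2.91 and 1.86, while the next lowest TZL dog had 7.28 on the main probe set. In all, 10 sets of values (5 subtypes on 2 probe sets) were checked for a dog standing apart, and chance flags about 1 in 20 of them. Both flags concern the same dog.

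The single NBNT dog, which entered no comparison, had MS4A1 at 10.13 and 9.74 on the 2 probe sets. Of the 27 other B cell genes, 2 were below the minimum in it and their mean was 7.19, while its CD3E was 11.38.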

How the results depend on the processing

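MS4A1 in B minus T kept its direction and its call under all 21 alternatives and when each of the 34 dogs was left out (3.06 to 3.55), and centring or quantile normalization moved the median of all genes by less than 0.1. With single dogs left out, TZL minus PTCL ran from -1.76 to -0.28, TZL minus LBT from 1.03 to 3.44, PTCL minus LBT from 1.98 to 4.40, DLBCL minus MZL from 0.07 to 0.25, BL minus DLBCL from -0.0461 to 1.01, and called other pairs from 4 to 7. Among Golden Retrievers only, TZL minus PTCL was 1.43 (limma adjusted p = 0.696) and PTCL minus LBT -0.43 (adjusted p = 0.974), with a lone PTCL dog, replicate 2, assumed to vary like the other groups, as is a lone BL dog. With the macrophage and dendritic cell list as a covariate, BL minus DLBCL was -0.54.

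Called positive slopes ran from 39 to 105, negative ones from 0 to 3 and those of B cell genes from 9 to 15 with single dogs left out. Positive slopes numbered 47 with values below 4 set to 4, 51 without the 3 T dogs below 5, 51 with the T lineage covariate and 0 with the macrophage and dendritic cell covariate; B cell genes numbered 8 with values set to 4, 9 without the 3 dogs and 0 with that covariate. Negative slopes numbered 2 without a filter and with a filter at 6, 3 with the second probe set, 4 with the array set as a block, with 3′ to 5′ control differences, with no subtype term and in TZL only, and 0 with values set to 4, with the trend and robust model and with either covariate. B cell genes passing the correlation by r numbered 13 over T dogs, 17 with subtype means subtracted and 8 in TZL only, where fewer dogs enter. The cause was not tested.

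Slopes were followed singly for part of the named genes only, and TNFRSF13C, BCL11A, C1QB, C1QC and FLT3 were not among them. Of the genes followed, CD79A changed sign in TZL only (-0.069). With the macrophage and dendritic cell covariate BLK (-0.00906), CD3D (0.0208), CD3E (0.0929) and CD3G (0.0545) did so. With the T lineage covariate CD3D (0.0125) and CD3E (0.0248) did, and all of these were uncalled. Of the other slopes of the genes followed, under alternatives that leave out no single dog, 338 kept their direction and side of the threshold, 40 lost and 5 gained the call. With single dogs left out, 420 kept both, 17 lost and 5 gained the call, and 11 of those losses were of CD22. No paired analysis was possible because replicate numbers follow only the order of the records. Values near the minimum have little signal over background, so low MS4A1 values have no firm order among themselves.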
